A study of Mus musculus with 6 samples.

Results

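Expression of 38 antiviral genes induced by type I interferon was examined in intestinal tissue of mice with colitis. The genes were a list of symbols chosen with earlier results of these data known. All 38 were found among the 55335 genes of the deposited count table. They comprised 3 sensors of viral RNA, 4 signalling factors and 31 effectors and effector regulators. RNA-seq libraries came from 3 wild-type (WT) mice and 3 Trmt6-/- mice, and dextran sulfate sodium (DSS), which damages the gut lining, had been given to all 6. Trmt6 encodes a subunit, itself without catalytic activity, of a tRNA methyltransferase. No mice without DSS were analysed here, so each comparison is between genotypes within treated animals. Strain, age, the DSS regimen, the gut segment and the design of the Trmt6 allele are not given in the sources used here.

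The targeted gene, Trmt6, had the higher mean in libraries labelled Trmt6-/-, at 36.7 ± 2.89 against 24.2 ± 6.18 CPM (normalised counts scaled to a common library size, mean ± SD, n = 3; log2 fold change 0.60 ± 0.21, SE; adjusted p = 0.335, edgeR). The allele design is not known, so this transcript level cannot settle whether the labels hold. Groups are called by the labels, and all directions below depend on them. Libraries held 15213972 to 16972758 counts and are named KO72, KO73, KO75 (labelled Trmt6-/-), WT185, WT186, WT187. Values of single libraries are always listed in that order, those labelled Trmt6-/- before the word "against" and WT after it. Trmt6 stood at 39.8, 34.2 and 36.2 against 30.9, 18.7 and 23.1 CPM, without overlap between groups (unadjusted p = 0.0256, edgeR). Nothing in the labels says more of how the animals of a group relate, so p-values measure only the spread between these samples. All libraries were rich in epithelial transcripts, with 10 epithelial markers summing to between 12006 and 15592 CPM. Neutrophil markers (9 genes) summed to 1.47, 3.98 and 10.5 CPM against 0.573, 0.205 and 1.38 CPM. Every library labelled Trmt6-/- lay above every WT library, but KO72 and WT187 were nearly equal. S100a8, S100a9, Cxcr2 and Ly6g had 0 counts in every WT library, and Cxcr2 had 2 counts in KO75 and none elsewhere. Groups overlapped for Csf3r (6, 6 and 8 against 6, 2 and 6 counts) and Mmp8 (4, 9 and 6 against 4, 0 and 7 counts). None of the 9 passed the filter on low counts, and the part of these cells in the results was not tested. The distal colon genes Hoxd13, Hoxb13, Hoxd10 and Hoxd11 had 0 counts in every library. Others of that list were present. Aqp8 stood at 0.282, 0.698 and 0 against 8.02, 54.5 and 0.959 CPM, without overlap (adjusted p = 0.250, edgeR). Saa1 stood at 41.1, 117 and 55.5 against 39.1, 1.02 and 0.120 CPM (adjusted p = 0.604, edgeR). Car1 had 38 counts, all in WT185. The 10 small intestinal enterocyte genes summed to between 20964 and 60146 CPM. The libraries differed in position markers within each group. An index of ileal minus proximal marker levels (mean log2 level of 4 ileal genes, Fabp6 among them, less that of 4 proximal genes, Gata4 among them) was 0.59, -1.02 and -3.25 in the first group and -1.47, -6.82 and -5.64 in WT. By this index KO72 and WT185 were the most ileal library of each group, and results are given below with and without them. Fabp6, Slc10a2, Gata4, Lct and Fabp1 each placed these libraries as the most ileal of their groups. Slc51b (75.6, 90.3 and 99.7 against 46.4, 54.0 and 31.3 CPM) and Cybrd1 (2.37, 0.698 and 1.21 against 3.75, 21.7 and 0.839 CPM) did not. Fgf15, at 3.61, 0.838 and 0 against 0.261, 0 and 3.54 CPM, did so only for KO72.

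Type I interferons bind a receptor on nearly every cell and, through the kinases JAK1 and TYK2, activate a complex containing STAT2 and IRF9 that enters the nucleus and binds the interferon-stimulated response element (ISRE). Its targets include cytosolic sensors that detect viral RNA, transcription factors that amplify the response, and effectors that block steps of viral replication. In the gut the same programme is driven in epithelial cells largely by type III interferon, and a low level of it is maintained without infection.

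Promoter sequences are shown first because the ISRE can be searched for in them. RefSeq windows of the GRCm38.p6 build, from 250 bases before to 50 bases after a start site, were on hand for 30 of the 38 genes. They were searched on both strands for the ISRE core, read here as GAAA, any 2 bases and GAAA, and overlapping matches were allowed. A match was present in 14 of the 30 genes (46.7%), against 3.99% of all 27025 genes with a window. The element of interferon-gamma signalling, read as TTC, any 3 bases and GAA, had a match in 6 of the 30 (20%) against 9.55%. A match describes letters only and shows no binding. The 6 stretches printed here were picked from the 10 genes lower in the libraries labelled Trmt6-/- at an unadjusted p below 0.05. All 6 hold a match. Of the others, Ifit1bl1 has a match and is not printed, Oasl2 has a window without a match, and Oas2 and Rtp4 have no window. The stretches are the 160 bases before the start site, in the direction of transcription, with ISRE core matches on either strand in capitals. They lie at chr19:34640729-34640888 (plus strand) for Ifit1, chr19:34583369-34583528 (plus) for Ifit3, chr4:156200819-156200978 (minus) for Isg15, chr12:26456453-26456612 (minus) for Rsad2, chr5:120777660-120777819 (minus) for Oas3 and chr5:120887614-120887773 (minus) for Oas1g.
Ifit1: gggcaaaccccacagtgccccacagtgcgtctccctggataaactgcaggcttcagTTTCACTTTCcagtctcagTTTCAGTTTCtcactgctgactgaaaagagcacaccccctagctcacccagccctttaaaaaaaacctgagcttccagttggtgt
Ifit3: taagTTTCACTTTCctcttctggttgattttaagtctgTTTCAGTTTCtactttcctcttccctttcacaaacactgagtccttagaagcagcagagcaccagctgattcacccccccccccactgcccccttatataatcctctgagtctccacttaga
Isg15: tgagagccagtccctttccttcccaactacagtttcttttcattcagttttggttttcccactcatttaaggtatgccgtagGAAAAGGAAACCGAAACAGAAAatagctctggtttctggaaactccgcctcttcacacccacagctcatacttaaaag
Rsad2: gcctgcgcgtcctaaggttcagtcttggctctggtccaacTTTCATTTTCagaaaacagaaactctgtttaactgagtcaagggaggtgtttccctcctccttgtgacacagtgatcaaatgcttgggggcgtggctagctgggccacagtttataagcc
Oas3: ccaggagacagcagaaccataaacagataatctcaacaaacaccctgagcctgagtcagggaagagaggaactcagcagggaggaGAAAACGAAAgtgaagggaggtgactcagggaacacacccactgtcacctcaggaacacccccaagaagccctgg
Oas1g: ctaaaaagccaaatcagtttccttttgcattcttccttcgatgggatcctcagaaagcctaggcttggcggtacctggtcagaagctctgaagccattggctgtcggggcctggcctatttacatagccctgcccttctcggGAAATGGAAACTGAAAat

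Ifit1 and Ifit3, both on chromosome 19, held the same pair of elements, GAAACTGAAA and GAAAGTGAAA read on the motif strand. In Isg15, 3 matches ran into one another, the nearest beginning 66 bases before the start site. Oas1g and its paralog Oas1a shared GAAATGGAAA and GAAACTGAAA. The same letters stood beside differing fold changes. GAAAACGAAA was found in Oas3 (log2 fold change -1.76) and in Eif2ak2 (-0.07), and GAAACTGAAA in Ifit1 (-2.39), Ifit3, Bst2, Oas1a, Oas1g and Stat2 (-0.44). The median log2 fold change was -0.83 over the 14 genes with a match and -0.40 over the 16 with a window and no match, and 7 of the 14 against 1 of the 16 were lower at an unadjusted p below 0.05 (5.94% of all tested genes). Members of one family share promoter sequence, so these genes are not independent of one another, and no test was made.

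Across the 38 antiviral genes, levels were lower on average in the libraries labelled Trmt6-/-, but no single gene passed the test. Of the 38, 35 (92.1%) had a log2 fold change below 0, against 53.9% of all 14107 genes tested, and their median was -0.49 against -0.03. With edgeR, 0 of 38 passed an adjusted p of 0.05 (background 0.00709% lower and 0.0354% higher), and the lowest adjusted p was 0.223. At an unadjusted p below 0.05 there were 10 of 38 lower (26.3%, background 5.94%) and 0 higher (background 6.15%). The groups did not overlap for 10 genes, all lower (26.3%, background 9.03%), and for 0 higher (background 9.7%). The 10 genes at that p and the 10 without overlap had 7 genes in common. DESeq2 called 3 of the 38, Ifit1, Ifit3 and Oas3 (7.89%, background 1.83% lower), with adjusted p of 0.00442, 0.0183 and 0.0282, and 0 higher (background 2.66%). Its unadjusted p was below 0.05 for 15 lower (background 6.82%) and 0 higher (background 7.11%), and limma-voom called 0 after adjustment. All 38 genes passed the filter on low counts.

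**Figure D1:**
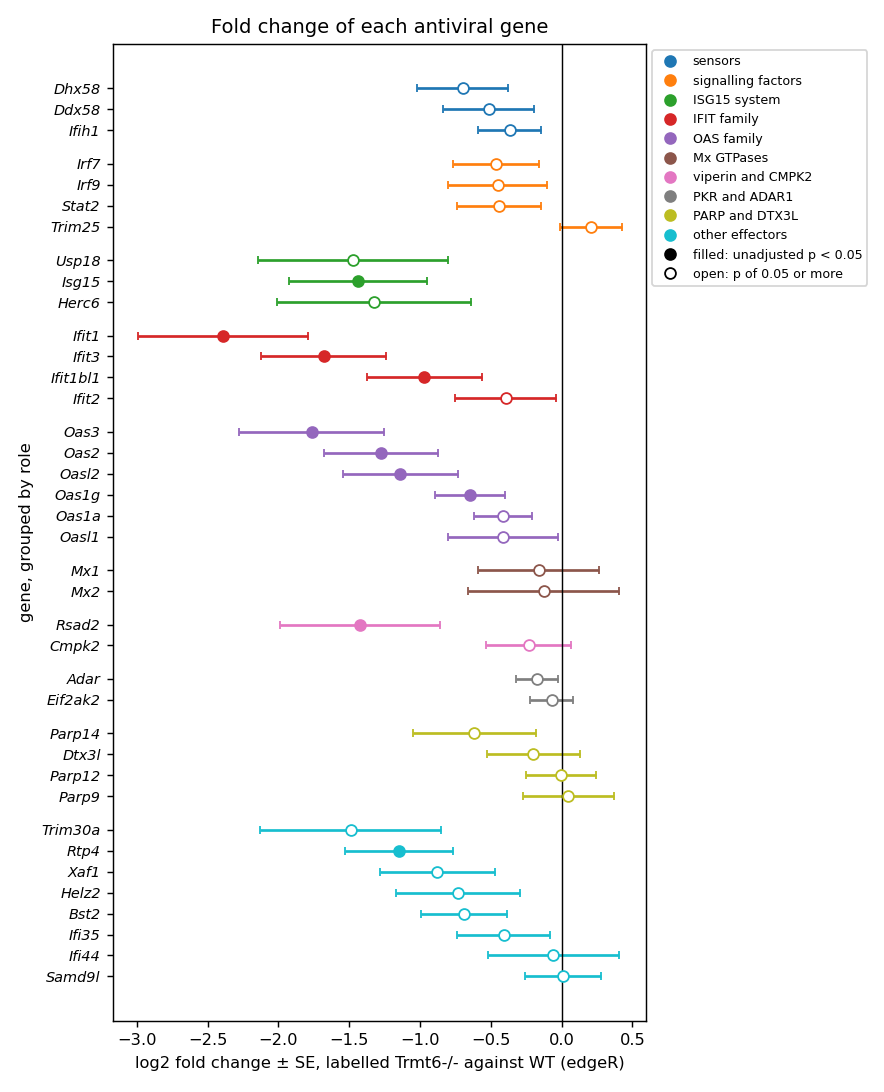
Log2 fold change ± SE (horizontal axis; libraries labelled Trmt6-/- against WT, edgeR, n = 3 each) of each of the 38 genes, grouped by role. Filled points have an unadjusted p below 0.05; the points extend furthest to the left for Ifit1 (-2.39), Oas3 (-1.76) and Ifit3 (-1.68), while Mx, PKR, ADAR1 and most PARP genes lie near 0.

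Fold changes were then described by the level of the gene. Among the 19 members with the lower mean level (1.69 to 19.8 CPM), the median log2 fold change was -1.15, all 19 were below 0 and 8 had an unadjusted p below 0.05. All tested genes in that range had a median of -0.06, with 6.12% lower at that p. Among the 19 more abundant members (28.8 to 228 CPM) the median was -0.41 and 2 had such a p, where all tested genes in the range had a median of -0.04 and 6.40% lower. Per kilobase of exon, which allows genes to be compared, the mean level over the 6 libraries was highest for Ifi35 (29.4 CPM per kb), Trim25 (27.0), Parp12 (22.6) and Parp9 (21.9). It was lowest for Oas2 (0.379), Ifi44 (0.403) and Ifit2 (0.600).

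The 3 RNA sensors had lower means in the libraries labelled Trmt6-/- without passing the test. Ifih1 encodes MDA5, which binds long double-stranded RNA, and stood at 62.0, 82.3 and 74.2 CPM against 66.8, 107 and 108 CPM (log2 fold change -0.37 ± 0.22, adjusted p = 0.592). Ddx58 encodes RIG-I, the sensor of uncapped viral RNA ends, and was measured at 39.0, 57.5 and 61.1 against 44.0, 98.7 and 82.7 CPM (-0.52 ± 0.32, adjusted p = 0.603). In both genes WT185 lay among the libraries labelled Trmt6-/- and only WT186 and WT187 stood above them. Dhx58 encodes LGP2, a helicase that modulates the other two sensors. It stood at 3.61, 4.47 and 6.76 against 6.88, 9.48 and 7.73 CPM, with no overlap between groups but KO75 and WT185 nearly equal (-0.70 ± 0.32, adjusted p = 0.462).

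Of the 4 signalling factors, 3 had a log2 fold change below 0 and 0 had an unadjusted p below 0.05. Irf7, the transcription factor that amplifies interferon production, stood at 37.8, 66.4 and 46.5 CPM against 45.1, 73.8 and 88.7 CPM (-0.46 ± 0.30). Irf9 and Stat2, which encode parts of the ISRE-binding complex, had log2 fold changes of -0.45 ± 0.35 and -0.44 ± 0.30. Adjusted p for these 3 genes ran from 0.623 to 0.691 and the groups overlapped in each. Trim25, a ubiquitin ligase that acts with RIG-I, was the most abundant of the 4 at 175, 185 and 139 against 109, 176 and 148 CPM, and its log2 fold change was above 0 (0.20 ± 0.22, adjusted p = 0.788).

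The ISG15 system, in which the ubiquitin-like protein ISG15 is attached to other proteins, had a median log2 fold change of -1.44. Isg15 (chromosome 4, 156199455 to 156200796) stood at 1.47, 3.14 and 3.91 CPM against 4.27, 8.87 and 9.89 CPM. These levels rest on 26 to 165 counts a library, every WT library lay above every library labelled Trmt6-/-, and KO75 and WT185 were close together (-1.44 ± 0.49, adjusted p = 0.319). Usp18, which removes ISG15 and restrains the interferon receptor, stood at 0.790, 3.14 and 4.27 against 3.54, 8.05 and 11.1 CPM (-1.48 ± 0.67, adjusted p = 0.458). Herc6, the ligase that attaches ISG15 in the mouse, stood at 1.92, 7.26 and 7.61 against 4.85, 14.6 and 22.7 CPM (-1.33 ± 0.69, adjusted p = 0.521). For Usp18 and Herc6 the groups overlapped through WT185.

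Members of the IFIT family, whose proteins bind foreign RNA ends and block their translation, included the gene with the lowest log2 fold change of the 38. Ifit1 (chromosome 19, 34640871 to 34650009) stood at 2.26, 6.77 and 6.90 CPM against 12.5, 24.2 and 46.6 CPM. The groups did not overlap, and the WT mean was 5.23 times the other (-2.39 ± 0.60, adjusted p = 0.223). Ifit3 (chromosome 19, 34583531 to 34588731) stood at 1.35, 2.23 and 1.85 against 4.32, 9.14 and 4.02 CPM (-1.68 ± 0.44, adjusted p = 0.231). Its groups did not overlap either, although its high library was WT186, whereas that of Ifit1 was WT187. Ifit1bl1, an Ifit1-like paralog and the most abundant of the 4, stood at 11.2, 22.5 and 24.8 against 32.3, 24.6 and 57.5 CPM, and KO75 lay just above WT186 (-0.97 ± 0.41, adjusted p = 0.413). Ifit2 differed least, at 2.03 ± 0.557 against 2.68 ± 0.430 CPM (-0.40 ± 0.36, adjusted p = 0.744). Ifit3 has a close copy, Ifit3b, and reads shared between copies were not counted, so the level of both is uncertain. Ifit3b was measured at 0.635 ± 0.308 against 1.25 ± 0.337 CPM (adjusted p = 0.531). Ifit1bl1 has a paralog, Ifit1bl2, and any reads shared between them were not counted either.

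Oligoadenylate synthetase (OAS) genes, whose products sense double-stranded RNA, all had log2 fold changes below 0. Oas3 (chromosome 5, 120753098 to 120777661) stood at 8.07, 12.8 and 6.12 CPM against 11.8, 43.0 and 36.9 CPM (-1.76 ± 0.51, adjusted p = 0.265). WT185 fell inside the range of the libraries labelled Trmt6-/-, and the difference lay in WT186 and WT187. Its neighbour Oas2 stood at 0.847, 1.26 and 0.854 against 2.29, 1.71 and 3.18 CPM, with no overlap (-1.28 ± 0.40, adjusted p = 0.286). Oas1g stood at 4.91, 5.10 and 5.12 against 8.44, 8.73 and 6.53 CPM (-0.65 ± 0.25, adjusted p = 0.372). In Oas1g the libraries labelled Trmt6-/- had an SD of 0.117 CPM and WT185 was close to WT186. Its paralog Oas1a was measured at 11.9, 9.92 and 9.68 against 15.6, 13.8 and 12.5 CPM, also without overlap and with KO72 and WT185 the high libraries of their groups (-0.42 ± 0.20, adjusted p = 0.501). Oas1a and Oas1g are close copies, so reads shared between them were lost and their levels are uncertain. Oasl2 makes an OAS-like protein and stood at 14.7, 33.7 and 25.0 against 29.6, 62.8 and 69.0 CPM (-1.14 ± 0.40, adjusted p = 0.338), overlapping through KO73 and WT185. Oasl1, reported as a brake on IRF7 translation, was the most abundant of the 6 at 33.9, 42.0 and 26.1 against 23.5, 69.0 and 43.6 CPM, with WT185 the lowest library of all (-0.41 ± 0.39, adjusted p = 0.754).

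**Figure D2:**
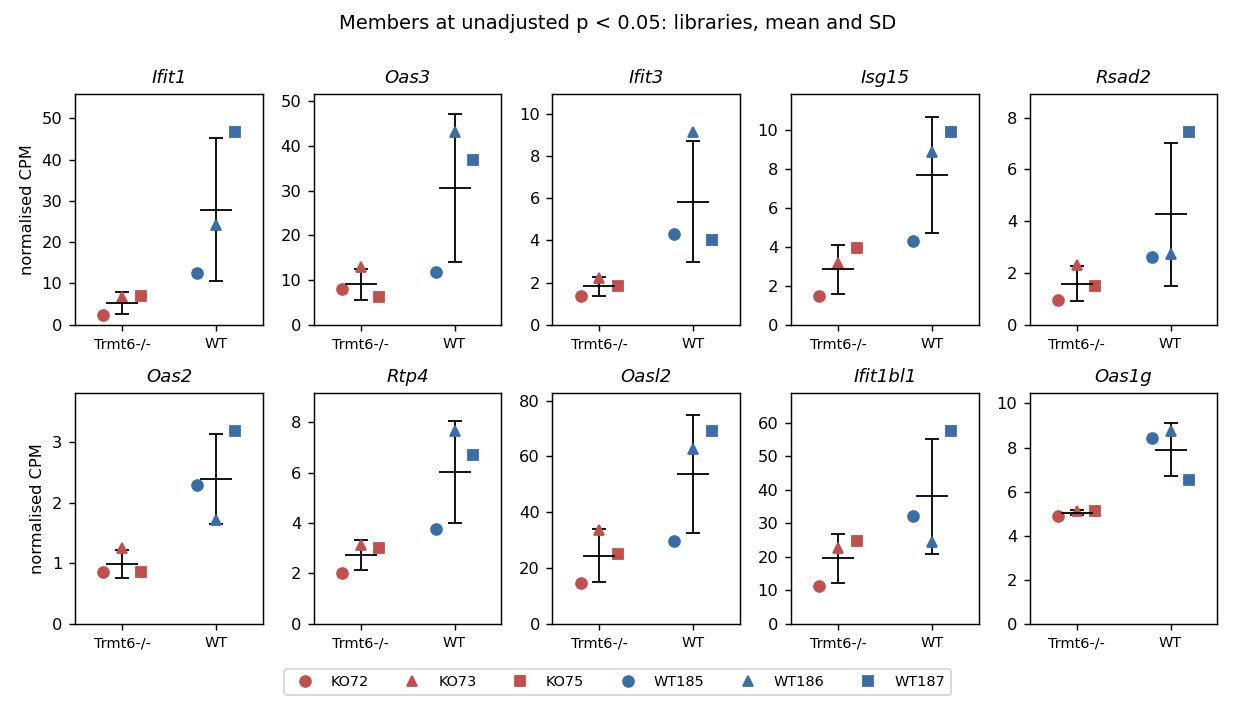
Normalised CPM (vertical axis, from 0) in each of the 6 libraries for the 10 genes with an unadjusted p below 0.05; red symbols are libraries labelled Trmt6-/-, blue are WT, and bars give the mean ± SD of 3. WT185 (blue circle) is the lowest WT library in Ifit1, Isg15, Oas3, Oasl2, Rtp4 and Rsad2, and KO72 (red circle) is the lowest of its group in 9 of the 10.

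A pair of neighbouring effectors on chromosome 12 is described next. Rsad2, which encodes viperin, a producer of chain-terminating nucleotides, stood at 0.959, 2.30 and 1.49 CPM against 2.61, 2.73 and 7.43 CPM. The groups did not overlap but were separated by a small margin outside WT187 (-1.43 ± 0.57, adjusted p = 0.384). Cmpk2, the nucleotide kinase gene 12.8 kb away on chromosome 12, was measured at 28.4, 42.9 and 31.1 against 24.6, 45.4 and 50.5 CPM (-0.23 ± 0.30, adjusted p = 0.829). Mx1 and Mx2, dynamin-like GTPases that trap viral nucleoproteins, had log2 fold changes of -0.16 ± 0.43 and -0.13 ± 0.53, and Mx1 stood at 3.95, 7.61 and 7.76 against 3.91, 9.14 and 8.57 CPM. Many laboratory strains carry an inactive Mx1, and the strain used is not known here. Eif2ak2 encodes PKR, the kinase that halts translation on binding double-stranded RNA, and stood at 52.1, 63.1 and 65.0 against 55.2, 65.8 and 68.3 CPM (-0.07 ± 0.15, adjusted p = 0.908). Adar, the editing enzyme that marks cellular double-stranded RNA as self, stood at 58.4, 59.4 and 59.2 against 55.0, 71.4 and 73.1 CPM (-0.17 ± 0.15, adjusted p = 0.731). The groups overlapped for both genes.

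Genes of the PARP family and their partner were abundant and overlapped between groups. Parp9 and Dtx3l, which encode a complex that modifies histones and viral proteins, overlap on chromosome 16 and share 458 exon bases on opposite strands, which counting without strand leaves out. They had log2 fold changes of 0.05 ± 0.32 and -0.20 ± 0.33. Parp12, a zinc-finger mono-ADP-ribosyltransferase gene, had -0.01 ± 0.25. Parp14, another ADP-ribosyltransferase gene, stood at 76.9, 155 and 156 CPM against 96.1, 221 and 277 CPM (-0.62 ± 0.44, adjusted p = 0.657). In each group the library that was most ileal by the position index was the lowest for Parp14.

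Of the other 8 effectors, Rtp4, which encodes a receptor chaperone that also restrains flaviviruses, stood at 2.03, 3.14 and 2.99 CPM against 3.75, 7.64 and 6.71 CPM. The groups did not overlap (-1.15 ± 0.38, adjusted p = 0.305), and 13.9% of its exon bases are shared with another annotated gene. Such shares were also above 10% in Adar (16.8%), Ifi35 (16.8%) and Herc6 (13.7%). Bst2, which encodes tetherin, a membrane protein that holds budding virions, stood at 4.35, 3.35 and 4.27 against 7.56, 4.71 and 7.01 CPM. Its groups did not overlap and its highest library was WT185 (-0.69 ± 0.30, adjusted p = 0.439). Trim30a stood at 1.30, 4.47 and 6.90 against 5.78, 15.5 and 14.2 CPM (-1.49 ± 0.64, adjusted p = 0.425). Helz2, a helicase gene and the most abundant of the 38 in CPM, stood at 105, 193 and 216 against 162, 460 and 232 CPM, and only WT186 stood clear of the rest (-0.73 ± 0.44, adjusted p = 0.586). Xaf1, a pro-apoptotic gene, had -0.88 ± 0.41 and Ifi35 -0.41 ± 0.33. Ifi44 and Samd9l, a restriction factor gene of poxviruses, lay at -0.06 ± 0.46 and 0.01 ± 0.27.

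The libraries of each group differed in the same way for most of the 38 genes. KO72 was the lowest of all 6 libraries for 25 genes and WT185 for 9, while WT187 was the highest for 18 and WT186 for 14. Within the WT group WT185 was the lowest library for 30 genes, and within the other group KO72 was the lowest for 31. The summed level was 1149, 1674 and 1617 CPM against 1241, 2385 and 2194 CPM, so that WT185 lay within the range of the libraries labelled Trmt6-/-. The median over the 38 genes of the log2 level, centred on each gene's mean, was -0.63, -0.07 and -0.04 in the first group and -0.25, 0.45 and 0.45 in WT.

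**Figure D3:**
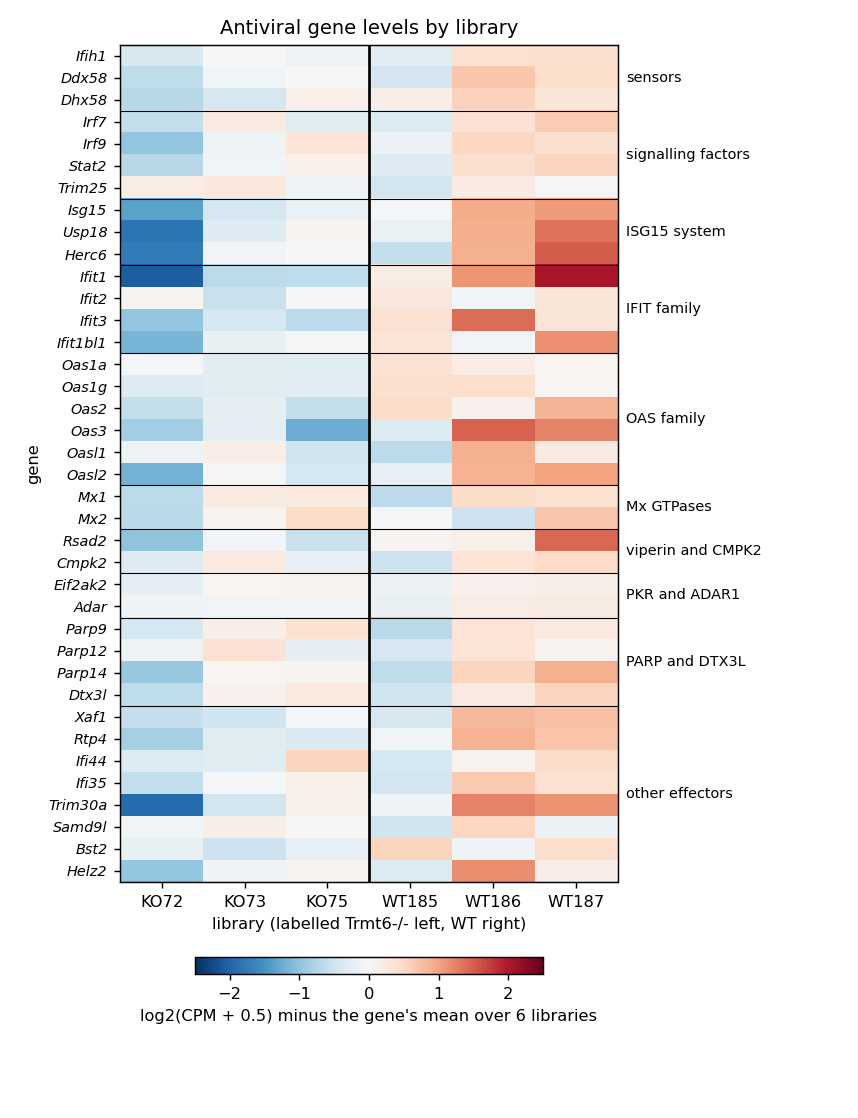
Level of each gene in each library, as log2(CPM + 0.5) minus the mean of that gene over the 6 libraries; rows are grouped by role and the black line separates libraries labelled Trmt6-/- from WT. KO72 is blue in most rows (lowest library for 25 genes), and WT186 and WT187 are red (highest for 14 and 18).

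The index of position along the gut moved with these levels, although its markers did not all follow the same order. The median antiviral level was lowest in KO72, by the index the most ileal library. It was highest in WT186 and WT187, by the index the most proximal ones. With the position index as a covariate, the median log2 fold change of the 38 genes turned to 0.04, and 17 of 38 lay below 0. At an unadjusted p below 0.05 there were then 4 lower (background 10.7%), Oas1a (-0.60), Ifit1 (-1.34), Bst2 (-0.89) and Oas2 (-1.33), and 1 higher (background 10.1%), Parp9 (0.76). The index differs between the genotypes as well as within them, so a part due to position and a part due to genotype cannot be told apart in 6 libraries. Without KO72 and WT185, an alternative chosen after seeing the data, 35 of 38 lay below 0 with a median of -0.57, 13 were lower at an unadjusted p below 0.05 (background 4.87%), 0 higher (background 5.96%) and 0 passed after adjustment. The groups then did not overlap for 29 genes that were lower (background 20.2%; background of higher 21.6%). Leaving out WT185 alone gave 19 lower at that p (background 6.92%), 0 higher (background 7.58%) and 29 lower without overlap (background 15%). Leaving out KO72 alone gave 0 higher (background 5.24%) and 4 lower (background 4.35%), namely 4 of the original 10, and leaving out WT187 alone also gave 4 lower (background 4.86%) and 0 higher (background 4.32%).

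**Figure D4:**
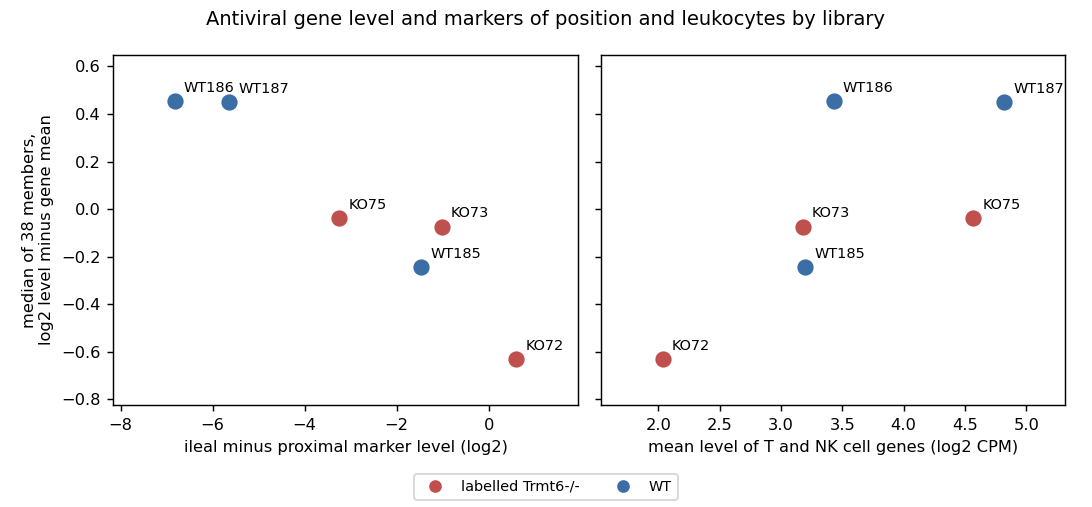
Median centred log2 level of the 38 genes in each library (vertical axis) against the ileal minus proximal marker index (left) and the T and NK cell index, an average of log2 levels (right). KO72, at an index of 0.59, has the lowest antiviral level (-0.63), and WT186 and WT187, at -6.82 and -5.64, the highest (both 0.45).

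Markers of immune cells moved with the antiviral genes in part. The 20 T and NK cell genes summed to 147, 394 and 1197 CPM against 415, 596 and 1563 CPM, and KO72 was thus also the lowest library here. With the mean level of these genes as a covariate, 31 of 38 antiviral genes lay below 0 with a median of -0.43, and 10 were lower at an unadjusted p below 0.05 (background 6.25%) and 0 higher (background 5.97%). Siglech, a defining marker of plasmacytoid dendritic cells, which make interferon-alpha, had 1, 2 and 0 counts against 15, 12 and 23 counts. The 10 markers of these cells as a whole summed to between 86.7 and 120 CPM for Trmt6-/- labels against 68.4 to 111 CPM for WT. Most of that came from genes other cells also express, such as Klk1 and Tcf4. Of the 8 markers tested, 3 lay below 0, Siglech among them, and 5 above (53.9% of all tested genes lay below 0). Tcf4 stood at 24.3, 26.6 and 26.3 against 15.8, 15.4 and 17.0 CPM. Its groups did not overlap, with the libraries labelled Trmt6-/- higher (0.68 ± 0.15, adjusted p = 0.190, edgeR). The 14 monocyte and macrophage genes summed to between 15.1 and 29.2 CPM in all libraries. The part of these cells in the antiviral levels was not tested beyond the covariate, and in bulk tissue fewer cells of a type and less RNA per cell cannot be told apart.

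Upstream of the antiviral genes, interferon transcripts were nearly absent. Of 21 ligand genes, 19 had 0 counts in all 6 libraries, Ifnb1 and the type III genes Ifnl2 and Ifnl3 among them, which allows up to 0.0312 CPM (3 counts over the 96186149 counts of all libraries, counting error only). The Ifna genes are close copies of one another, and so are Ifnl2 and Ifnl3. Reads shared between copies were not counted, so the zeros of these genes are uncertain and the limit does not cover them. Ifng, the type II interferon, had 30 counts in WT187 and at most 3 in any other library. Ifnk had at most 9.

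Of the 6 receptor genes, all were tested, 5 had a log2 fold change above 0 and the median was 0.18. Ifnar1, a subunit of the type I receptor, was measured at 71.4 ± 6.75 against 62.6 ± 7.87 CPM (0.19 ± 0.15, adjusted p = 0.699), and Ifnlr1, of the type III receptor, at 31.7 ± 2.71 against 31.6 ± 13.1 CPM (0.01 ± 0.31, adjusted p = 0.997). Of 6 receptor genes 0 passed after adjustment, and Ifngr1, of the interferon-gamma receptor, had an unadjusted p below 0.05, at 236, 238 and 228 CPM against 144, 185 and 150 CPM. Its groups did not overlap, with the libraries labelled Trmt6-/- higher (0.55 ± 0.16, adjusted p = 0.265).

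Of 18 genes of receptor signalling and its brakes, 0 passed after adjustment, 1 was lower (5.94% of all tested genes) and 1 higher (6.15%) at an unadjusted p below 0.05. The lower one was Irf1, a transcription factor gene, at 113 ± 21.7 against 171 ± 43.9 CPM (-0.60 ± 0.25, adjusted p = 0.408). The higher one was Socs3, a feedback inhibitor chiefly of interleukin-6 family signalling, at 71.2, 258 and 458 CPM against 13.7, 16.8 and 39.0 CPM. These groups did not overlap, and the log2 fold change was 3.50 ± 0.74 (adjusted p = 0.180). Jak2 had the highest mean CPM of the 18, at 229 ± 35.9 against 193 ± 73.4 CPM.

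Among 25 tested genes of nucleic acid sensing, 5 were lower (5.94% of all tested genes) and 3 higher (6.15%) at an unadjusted p below 0.05, and 0 passed after adjustment. Irf3, the transcription factor that starts interferon production, stood at 47.3, 43.6 and 47.9 CPM against 57.3, 63.2 and 64.3 CPM (-0.41 ± 0.12, adjusted p = 0.275). Here WT185 lay with the WT libraries, and the groups did not overlap. Traf6, an adaptor of Toll-like receptors, was measured at 66.4 ± 7.21 against 34.6 ± 5.16 CPM (0.94 ± 0.17, adjusted p = 0.138). Aim2, a sensor of cytosolic DNA, was measured at 23.1 ± 6.53 against 7.45 ± 3.63 CPM (1.63 ± 0.41, adjusted p = 0.221). Both were higher in every library labelled Trmt6-/- than in any WT library. The kinase gene Ikbke, which activates IRF3, stood at 50.7 ± 3.25 against 69.1 ± 7.75 CPM (-0.45 ± 0.14, adjusted p = 0.281).

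A further 54 interferon-stimulated genes outside the 38 were listed, and 47 were tested. Of these, 35 lay below 0 (53.9% of all tested genes), with a median log2 fold change of -0.29 (-0.03 over all). At an unadjusted p below 0.05, 6 were lower (5.94% of all) and 1 higher (6.15%), and 0 passed after adjustment. Log2 fold changes in the list ran from -1.67 to 1.56, and the lowest adjusted p was 0.112 (edgeR). Phf11d, Apol9b and Ifi27, given next, are among the 6 lower, and the 1 higher is not named here. Phf11d had 0.915 ± 0.245 against 2.54 ± 0.680 CPM (-1.47 ± 0.40, adjusted p = 0.245) and Apol9b 3.22, 4.40 and 5.91 against 5.68, 17.5 and 18.9 CPM (-1.64 ± 0.50, adjusted p = 0.275). Ifi27 had a log2 fold change of -0.84 ± 0.29 (adjusted p = 0.332), and Lgals9, the most abundant of the list, stood at 581 ± 127 against 505 ± 55.6 CPM. Of 8 OAS and IFIT paralogs outside the 38, 4 were tested, all 4 lay below 0 with a median of -1.07, and 0 had an unadjusted p below 0.05.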

How the data were processed

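RNA-seq counts of 6 libraries (3 WT, 3 labelled Trmt6-/-) were analysed. Per the file headers, the values the authors deposited are unnormalised gene counts from featureCounts 2.0.1 on paired reads, with GENCODE M23 exons grouped by gene. No strand, multimapping or overlap option was set, so reads of several places or genes were left out. The submitters' processing notes name fastp, HISAT2 and mm10. The deposited gene length (unit: other) gave levels per kilobase. Per the labels' protocols, cDNA was amplified, and no molecular identifiers are mentioned, so limits from counts cover counting error only. Column names give genotype and animal, without a replicate number.

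Symbols came from GENCODE M21 (55154 of 55335 identifiers matched). Genes passing filterByExpr (14107) were scaled by TMM and tested with edgeR 4.0.16 in R 4.3.3, quasi-likelihood F test, two-sided, genotype as the only term, Benjamini-Hochberg over all tested genes, threshold 0.05. SE is the size of the log2 fold change divided by the square root of F. CPM uses TMM-scaled library sizes, and indices are means of log2(CPM + 0.5). The test was checked on simulated counts. Alternatives were RLE, upper-quartile and library-total scaling, DESeq2 1.42.0, limma-voom (limma 3.58.1) without and with quality weights, robust dispersions, other filters, 2 covariates and left-out libraries. Members, gene lists and tests were chosen with earlier results of these data known. Values in every library are given for members at an unadjusted p below 0.05 or without overlap, for the most abundant member of each role group and for some others. From each other list, up to 4 genes with the smallest p below 0.05 and the most abundant one were eligible to be named, and Ifnar1, Ifnlr1, Ifnk and Ifit3b were chosen after their values were seen. Some genes of these lists are not reported here by name.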

Additional observations from a re-analysis of the deposited data

How the results depend on the processing

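The number of antiviral genes past the adjusted threshold was 0 in every fit except DESeq2, which called 3 (Ifit1, Ifit3 and Oas3). The count lower at an unadjusted p below 0.05 was 10, and it was 18 with sample quality weights in limma-voom (where 12.1% of all genes were lower at that p, against 5.94%), 4 with the position index as a covariate and 4 to 19 with 1 library left out (4 without KO72 or WT187, 19 without WT185). The count higher was 0, except 1 with the position index. The median log2 fold change ran from -0.66 to -0.41 with 1 library left out and turned to 0.04 with the position index. Genes lower without overlap numbered 10 to 29 with 1 library left out (29 without WT185) and 29 without KO72 and WT185, and genes higher without overlap 0 to 1. With the position index, log2 fold changes turned above 0 for Ifih1 (0.05), Herc6 (0.09), Oasl1 (0.28), Mx1 (0.70), Cmpk2 (0.30), Adar (0.03), Parp14 (0.34), Helz2 (0.18), Ddx58 (0.23), Irf7 (0.03), Irf9 (0.155), Stat2 (0.17), Eif2ak2 (0.14), Dtx3l (0.44), Mx2 (0.22), Ifi44 (0.63), Ifi35 (0.34) and Parp12 (0.33), which makes 18 genes. With the leukocyte index those of Mx1 (0.02), Mx2 (0.19), Ifi44 (0.18) and Dtx3l (0.01) did. The number of the 38 below 0 was 35 with all libraries, 29 without KO72, 32 without WT186, 32 without WT187 and 37 without WT185. It was 35 without KO73 and 35 without KO75. Among the genes that changed sign with 1 library left out, Mx1 ran from -0.44 to 0.11 and Oasl1 from -0.71 to 0.04. The cause of these shifts was not tested. All 10 genes at an unadjusted p below 0.05 stayed below 0 under every setting run. Over all genes, 6 passed after adjustment, against 633 with DESeq2, 385 with quality weights, 159 without a filter on low counts, 4 with upper-quartile scaling, 2 with the leukocyte index, 0 with library totals, limma-voom or the position index and 0 to 6 with 1 library left out. No paired analysis was possible because the count columns carry no replicate number. Oas2 and Rsad2 rest on few counts per library, which limits their precision.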
